A study of Homo sapiens with 4 samples.

Results

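Chromatin modifiers and remodelers were described in NUGC3, an established human stomach cancer cell line, in 2 libraries of cells with a MYC knockdown and 2 libraries of wild-type cells. MYC is a transcription factor that drives growth, and the sources used here do not say how it was knocked down. The genes were chosen by name alone, as the protein-coding Ensembl rows whose symbols belong to 12 families: the KDM histone demethylases, KMT2 and EZH histone methyltransferases, KAT acetyltransferases, HDAC and SIRT deacetylases, SMARC and CHD remodelers, BRD and CBX readers of histone marks, and the DNMT and TET enzymes of DNA methylation. This gave 96 genes of 20269 protein-coding rows and 53777 Ensembl rows. Values are taken to be FPKM, fragments per kilobase of transcript scaled to library size, a unit that the labels do not state. Comparing levels between genes rests on that unit. The labels do not tie replicates to separate cultures, and every p-value therefore rests on the spread between these libraries, which may be technical.

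These enzymes set how tightly DNA is packed around histones. Acetyltransferases and the H3K4 methyltransferases of the KMT2 family write marks found at active genes, deacetylases and demethylases remove marks, and EZH2 with its Polycomb partners writes the silencing mark H3K27me3. Remodelers such as SWI/SNF (SMARC) and CHD proteins use ATP to move nucleosomes, and bromodomain and chromodomain proteins bind the finished marks. Remodelers and acetyltransferase complexes are known partners through which MYC works at its target genes.

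MYC itself (ENSG00000136997, chromosome 8) stood at 65.0 and 75.8 FPKM in the knockdown libraries, against 82.9 and 82.0 FPKM in wild type. The groups did not overlap, but the log2 change of −0.23 was not called (limma adjusted p = 0.237). Among all genes, the median absolute log2 difference was 0.20 between the knockdown libraries and 0.08 between the wild-type libraries. Interferon-stimulated genes set these knockdown libraries apart, since the 15 listed genes summed to 1268 FPKM in MYC knockdown replicate 1 and 128 FPKM in MYC knockdown replicate 2, against 126 and 119 FPKM in wild type. Of the 12 that were tested, 7 were higher without overlap (33.4% of all genes were) and 0 were called (10.4% of all genes were). MX2 and IFI27, among these 7, passed the filter only through the knockdown libraries, so they had to differ to be tested. Epithelial markers were high in all 4 libraries, the 6 genes summing to 5986 and 5422 FPKM in the knockdown and 5125 and 5181 FPKM in wild type. KRT19 was the 1 called (16.7%, against 10.4% of all genes), higher at a log2 change of 0.74 (limma adjusted p = 0.0556). Without overlap, 4 were higher and 1, EPCAM, was lower at −0.15 (all genes 33.4% and 25.2%). KRT18 overlapped at −0.10. Of the fibroblast, leukocyte and endothelial markers, CD68, a lysosomal protein also made outside leukocytes, had 21.5 and 22.3 FPKM in the knockdown against 12.4 and 17.1 FPKM in wild type. COL1A1 had 8.12 and 2.98 FPKM against 6.57 and 5.75 FPKM, and no other of these markers passed the filter.

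Of the 96 chromatin genes, 87 had at least 1 FPKM in at least 2 libraries and were tested. The other 9 were silent or nearly so in both groups. KDM5D, a Y-linked H3K4 demethylase, and DNMT3L, a cofactor of DNA methylation without enzyme activity, were listed at 0 in every library. KDM4E had 0.02 FPKM in 1 wild-type library and 0 in the others. TET1, SMARCA1, CHD5, SIRT4, KDM4D and KDM8 lay between 0.02 and 0.94 FPKM over the 4 libraries.

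As a set, these genes had the median change of all genes. The median log2 change over the 87 tested genes was 0.04, and it was 0.04 over all 12953 genes tested. With limma and Benjamini-Hochberg adjustment over all genes, 0 of the 87 passed an adjusted p of 0.05, as did 0 of all genes (0%). An unadjusted p under 0.05 was reached by 17 of the 87, against 25.9% of all genes. At an adjusted p under 0.10, a threshold chosen with earlier results of these data known, 7 of the 87 passed (8.05%, against 10.4% of all genes). Of these, SMARCD3 was called higher (1 gene, against 5.5% of all genes that were higher), having passed the filter only through the knockdown libraries, and CHD7, SMARCC1, SMARCA4, KDM7A, DNMT3B and KDM5B fell (6 genes, against 4.91% of all genes that were lower). The share called is thus near that of all genes. After scaling all libraries to an equal FPKM sum, 4 chromatin genes were called higher and 5 lower, against 1559 and 591 of all genes, where the unscaled split of all genes was 713 and 636.

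The calls depended on which libraries were fitted. Without MYC knockdown replicate 1, limma called 11 of the 87 genes higher and 19 lower at 0.10, beside 2609 and 2695 of all 12953 genes. Without MYC knockdown replicate 2 these counts were 19 and 18, beside 3191 and 2168 of all genes, and in both fits the spread came from the close wild-type pair. Without wild type replicate 1, or without wild type replicate 2, the spread came from the knockdown pair, and 0 of the 87 were called, beside 0 and 1 of all genes. With the replicate number as a block, CHD7 and SMARCC1 were called. In the tallies of alternatives below, both fits without a knockdown library count as kept. Both fits without a wild-type library count as not kept, so a tally is no measure of support.

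By their values alone, 28 of the 87 genes had both knockdown libraries above both wild-type libraries (32.2%, against 33.4% of all genes) and 24 had them below (27.6%, against 25.2% of all genes). Of these, 18 and 16 were also without overlap under each of 3 other scalings. Those higher that overlapped under at least 1 scaling were CHD1L, CHD9, EZH1, KMT2E, KAT6A, KAT7, HDAC9, KDM4B, KDM6B and SIRT2. Those lower that did so were CHD1, KMT2C, TET3, BRD9, CBX1, CBX2, KDM1B and KDM2B. The sign of the log2 change turned under at least 1 of these scalings for 14 genes, all with overlapping groups as deposited. Among them were DNMT3A, SMARCA5, SMARCAD1, SMARCB1, SMARCD1, SMARCE1, BRD1, BRD7, HDAC4, HDAC8, KDM3A, KDM3B and KDM5C. Scaling could separate their groups in either direction. KDM3B was higher without overlap with equal FPKM sums, and lower without overlap with median-of-ratios scaling and with quantile normalization. SMARCAD1 was higher without overlap with equal FPKM sums and lower without overlap with quantile normalization. Changes were small, since an absolute log2 change of at least 0.5 was found for 8 genes, 9.20% of those tested against 15.7% of all genes. The knockdown libraries also differed from each other: in 62 of the 87 genes MYC knockdown replicate 1 exceeded MYC knockdown replicate 2 (71.3%, against 60.5% of all genes). For 15 genes MYC knockdown replicate 1 lay above both wild-type values and MYC knockdown replicate 2 below both, and for 2 genes the reverse held. The part of the interferon-stimulated genes, high in MYC knockdown replicate 1, in this was not tested.

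**Figure D1:**
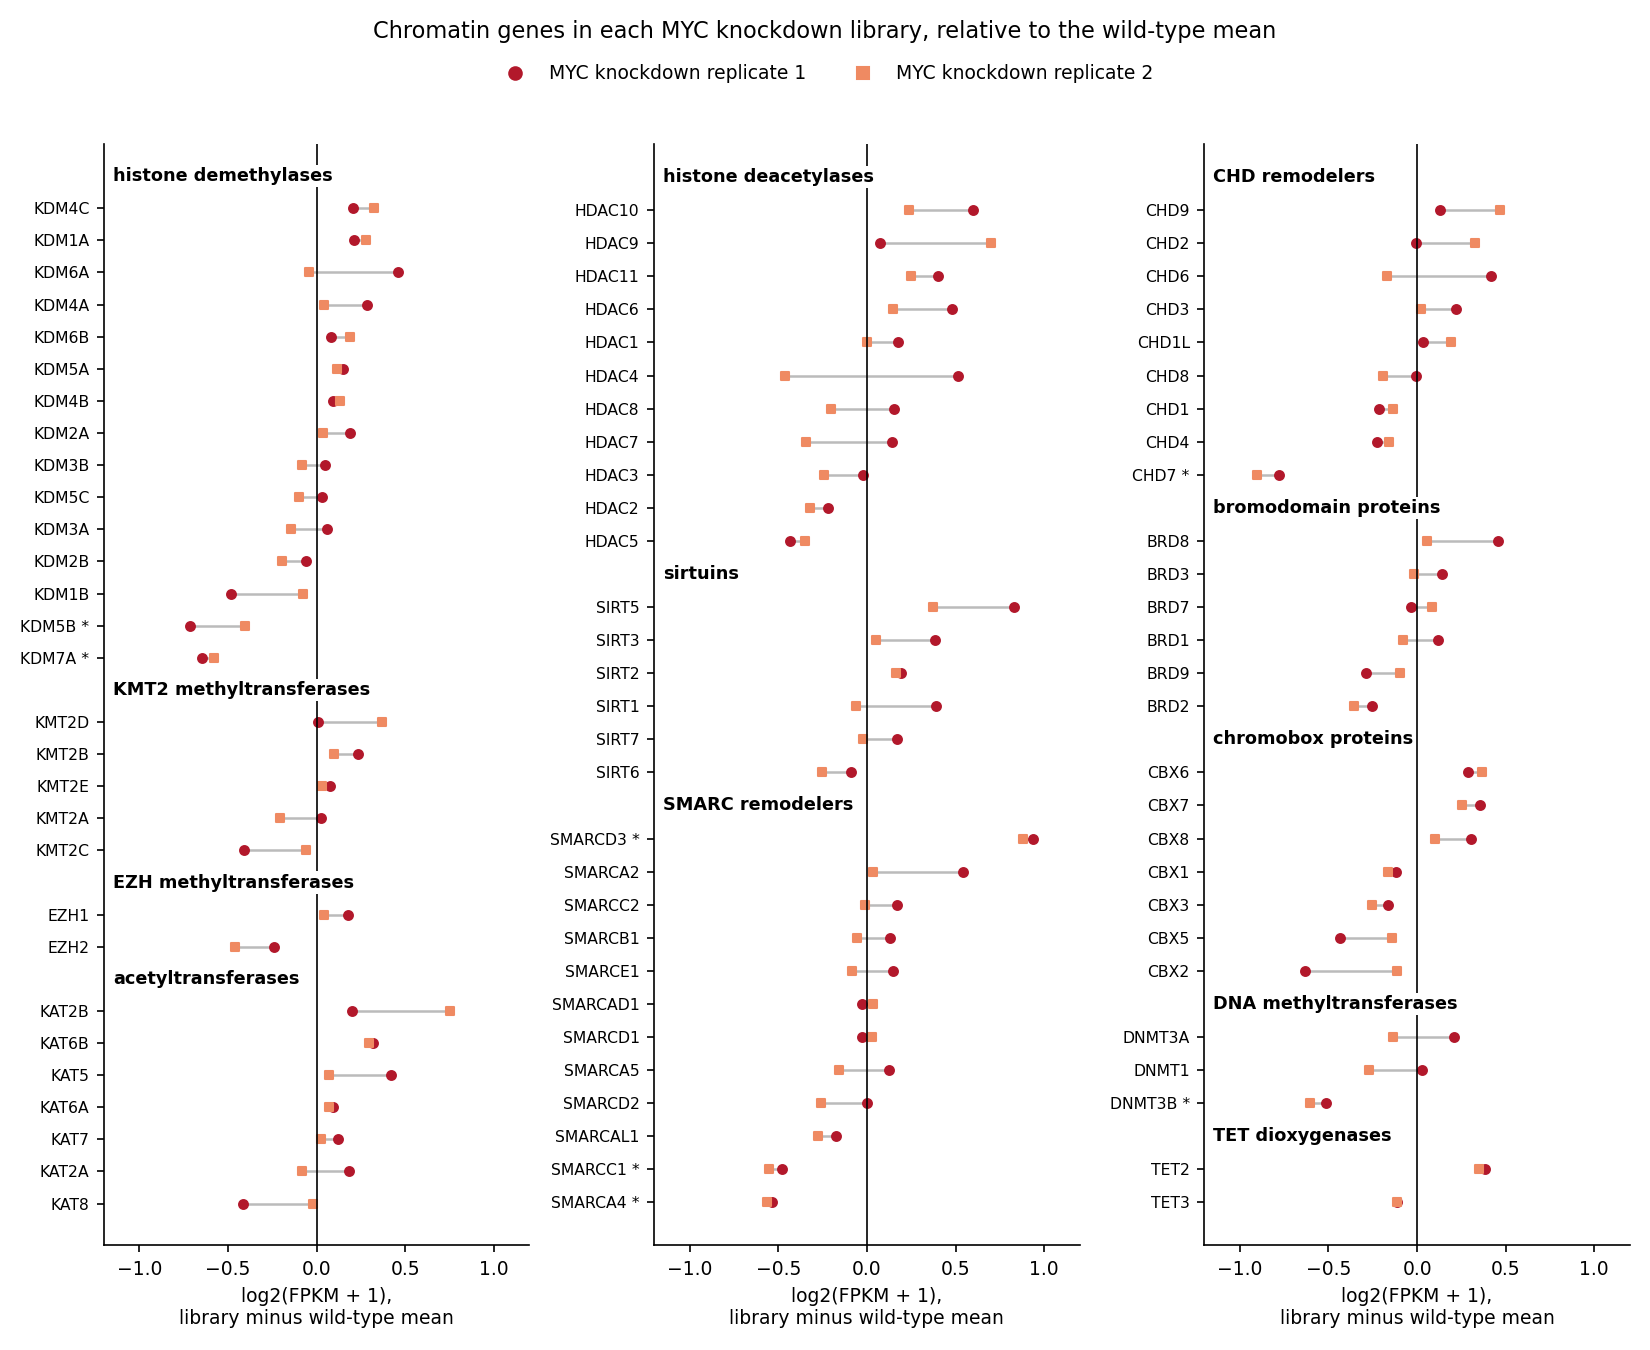
Each row is 1 of 85 tested genes, grouped by family; the points give log2(FPKM + 1) in MYC knockdown replicates 1 (circle) and 2 (square) minus the mean of the 2 wild-type libraries, and an asterisk marks an adjusted p under 0.10. CHD7 lies lowest at −0.78 and −0.90, SMARCD3 highest at 0.94 and 0.88, and most genes lie near 0.

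Of 12 tested SMARC genes, 2 were called lower and 1 higher at 0.10 (4.91% and 5.5% of all genes), and 8 overlapped. Those called lower encode the main SWI/SNF ATPase and 1 scaffold subunit, and only their RNA was measured. SMARCA4 (ENSG00000127616, at 10960825 to 11079426 on chromosome 19, plus strand, by GENCODE 29 on GRCh38), the BRG1 ATPase that drives the complex, stood at 30.0 and 29.3 FPKM in the knockdown libraries, against 41.1 and 46.8 FPKM in wild type. Both knockdown libraries lay well below both wild-type libraries, at 67.5% of the wild-type mean. This is a log2 change of −0.55 (SE 0.10, limma adjusted p = 0.0687), and 8 of 13 alternative settings kept it under 0.10. SMARCC1 (ENSG00000173473, chromosome 3, 47585272 to 47782106, minus strand), the BAF155 scaffold that holds the complex together, stood at 34.5 and 32.8 FPKM in the knockdown and at 50.1 and 46.9 FPKM in wild type. That is 69.3% of the wild-type mean, a log2 change of −0.52 (SE 0.08, limma adjusted p = 0.0629), kept under 0.10 in 10 of 13 alternatives.

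SMARCD3 (ENSG00000082014, chromosome 7, 151238764 to 151277896, minus strand), a BAF60 subunit that in the mouse is known from heart and muscle, lay above wild type at a low level. It stood at 2.01 and 1.90 FPKM in the knockdown libraries, against 0.64 and 0.51 FPKM in wild type. The groups did not overlap, and the log2 change was 0.91 (SE 0.18). It passed the filter only through the knockdown libraries, so it had to differ to be tested and its call is no support for a change, and the log2(FPKM + 1) scale understates the ratio of such low values.

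The other SWI/SNF members changed less. SMARCA2, the alternative BRM ATPase, had 13.8 and 9.38 FPKM in the knockdown and 8.67 and 9.62 FPKM in wild type, so that only MYC knockdown replicate 1 was high. SMARCE1 and SMARCB1, 2 core subunits, had log2 changes of 0.03 and 0.04, SMARCC2, the second scaffold, 0.08, and SMARCD1 and SMARCD2, the common BAF60 subunits, 0.00 and −0.13. Their groups overlapped. SMARCA5, the ATPase of the ISWI complexes, had −0.01 and SMARCAD1, a remodeler used at DNA ends, 0.00, while SMARCAL1, which rewinds DNA at stalled forks, had 15.2 and 14.1 FPKM against 16.7 and 17.9 FPKM in wild type, at −0.22 (limma adjusted p = 0.237). Among 14 tested BAF and PBAF partners from a separate list, 0 were called (10.4% of all genes were), and the median was 0.07. Without overlap, 5 were higher and 2 lower (all genes 33.4% and 25.2%). Those lower were ARID1A, the DNA-binding subunit of BAF, and BICRA, listed under its older symbol GLTSCR1, at −0.25 and −0.36. PHF10 and DPF2, finger proteins of PBAF and BAF, were among the higher ones at 0.25 and 0.33.

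**Figure D2:**
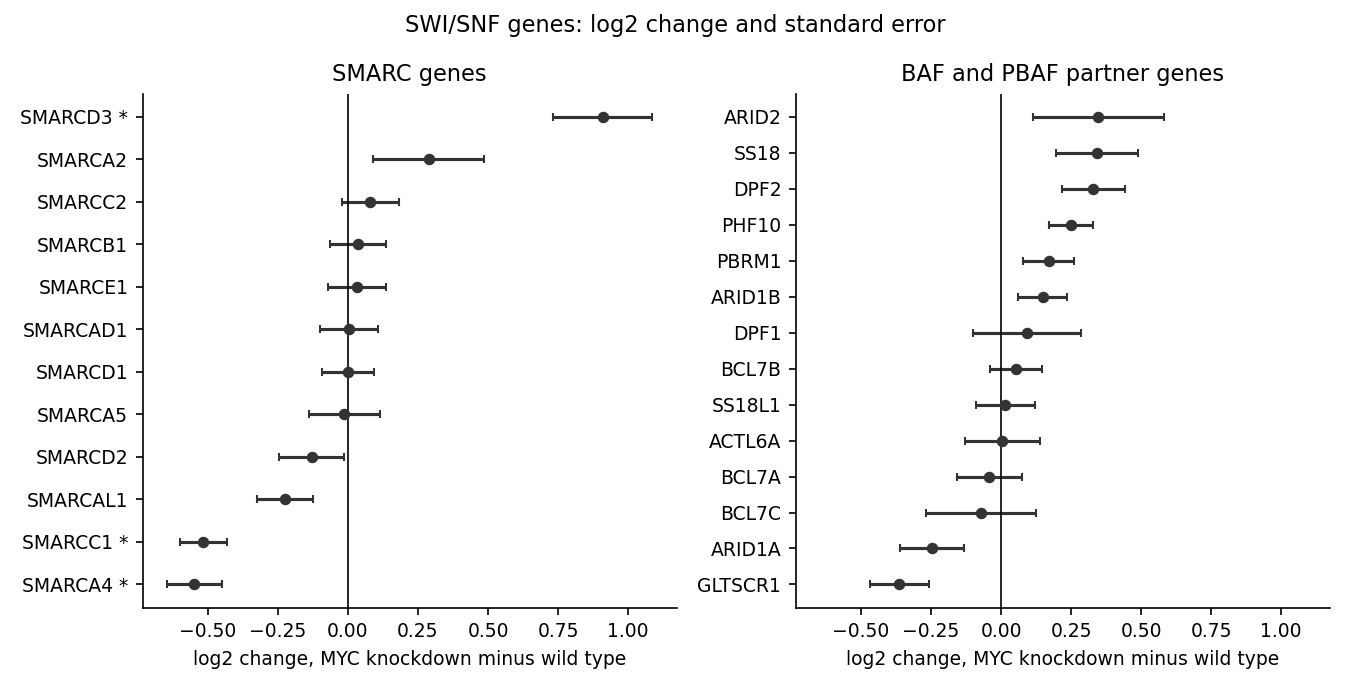
Log2 change (MYC knockdown minus wild type, on log2(FPKM + 1)) with the limma standard error for the tested SMARC genes (left) and the tested BAF and PBAF partners (right); an asterisk marks an adjusted p under 0.10. SMARCA4 and SMARCC1 lie apart from the other SMARC genes at −0.55 and −0.52, and SMARCD3 lies at 0.91.

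The stretch before the SMARCA4 start site is shown because, of the 5 called genes with a promoter in the table, SMARCA4 was the 1 that held a variant of the E-box, which was seen before the gene was chosen for printing. MYC with its partner MAX binds the E-box CACGTG, and less strongly variants such as CACGCG. The bases are the 250 before the RefSeq start site (GRCh38.p14, chr19:10960780-10961029, plus strand), with CACGCG or its reverse complement in capitals.

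SMARCA4: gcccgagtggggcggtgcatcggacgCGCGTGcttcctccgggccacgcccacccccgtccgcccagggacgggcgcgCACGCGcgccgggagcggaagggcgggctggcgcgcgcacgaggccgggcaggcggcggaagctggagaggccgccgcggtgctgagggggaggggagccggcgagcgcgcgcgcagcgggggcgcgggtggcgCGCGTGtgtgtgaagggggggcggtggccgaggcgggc

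The variant starts at −224, −172 and −38, where −1 is the base before the RefSeq start site, and CACGTG was not found there. GENCODE starts SMARCA4 inside this window, as it does CBX5 and CBX6 below, and it starts TET3 downstream of its window. CACGCG on either strand was found in 18.8% of 8794 promoters of tested protein-coding genes (250 bases before to 50 after the start site) and in 16 of 75 promoters of tested chromatin genes (21.3%). CACGTG, which reads the same on both strands, was found in 10.3% of the 8794 and in 11 of the 75 (14.7%). Of the 5 called genes with a promoter in the table (SMARCA4, KDM7A, DNMT3B, KDM5B and SMARCD3), 0 held CACGTG. Matches are letters in a window and not measured binding.

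Among CHD remodelers, CHD7 showed the largest fall of all the chromatin genes tested. CHD7 (ENSG00000171316, chromosome 8, 60678778 to 60868028, plus strand), a remodeler of developmental enhancers, stood at 4.84 and 4.37 FPKM in the knockdown libraries, against 8.66 and 9.42 FPKM in wild type. Both groups were tight and far apart, and the knockdown mean was 50.9% of the wild-type mean. Its log2 change was −0.84 (SE 0.12, limma adjusted p = 0.0572), and 10 of 13 alternatives kept it under 0.10. CHD4, the ATPase of the NuRD repressor complex, had 56.3 and 59.0 FPKM in the knockdown and 65.4 and 66.5 FPKM in wild type, a log2 change of −0.19 that was not called (limma adjusted p = 0.204). CHD1, which binds H3K4me3, lay at −0.18, and CHD9 and CHD1L lay at 0.30 and 0.11, each without overlap as deposited. CHD1 overlapped with equal FPKM sums, CHD9 with quantile normalization, and CHD1L with that and with median-of-ratios scaling. CHD8, a close relative of CHD7, and CHD2, CHD3 and CHD6 overlapped between groups, at −0.10, 0.16, 0.12 and 0.13.

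Of the DNA methylation enzymes, DNMT3B was the 1 called. DNMT3B (ENSG00000088305, chromosome 20, 32762385 to 32809356, plus strand), which places new methylation, fell, with 3.56 and 3.28 FPKM in the knockdown libraries against 5.59 and 5.41 FPKM in wild type. This was 62.2% of the wild-type mean and a log2 change of −0.56 (SE 0.12, limma adjusted p = 0.0914), and 8 of 12 alternatives kept it under 0.10. DNMT3A, the other enzyme of that kind, had 2.44 and 1.72 FPKM against 2.10 and 1.87 FPKM in wild type, with no separation. DNMT1, which copies methylation at replication, made up 92.8% and 92.6% of the summed DNMT level in the knockdown and 90.8% and 91.3% in wild type. It stood at 77.7 and 62.8 FPKM in the knockdown and 75.8 and 76.3 FPKM in wild type, so only MYC knockdown replicate 2 was low. TET2, which oxidises methylated cytosine, had 4.87 and 4.74 FPKM in the knockdown against 3.43 and 3.57 FPKM in wild type, at 0.37 (limma adjusted p = 0.160), above wild type without overlap. TET3, the more abundant family member, had 8.42 and 8.40 FPKM against 9.61 and 8.77 FPKM, at −0.11 (limma adjusted p = 0.547), below wild type.

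TET2 and TET3 both held CACGTG in the 250 bases before their start sites and are shown to mark where it stands; neither gene was called (GRCh38.p14, plus strand, chr4:105145625-105145874 for TET2 and chr2:73984660-73984909 for TET3), with the E-box and its variant, on either strand, in capitals.

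TET2: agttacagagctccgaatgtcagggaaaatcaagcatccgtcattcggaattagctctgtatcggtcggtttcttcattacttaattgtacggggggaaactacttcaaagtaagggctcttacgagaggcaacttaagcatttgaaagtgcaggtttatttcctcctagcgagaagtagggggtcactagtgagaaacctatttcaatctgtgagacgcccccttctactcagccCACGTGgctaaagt

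TET3: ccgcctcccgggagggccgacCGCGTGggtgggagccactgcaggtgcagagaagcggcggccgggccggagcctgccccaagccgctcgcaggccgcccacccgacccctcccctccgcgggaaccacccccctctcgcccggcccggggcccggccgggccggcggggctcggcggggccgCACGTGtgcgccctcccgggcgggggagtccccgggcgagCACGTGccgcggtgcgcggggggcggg

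CACGTG starts at −14 in TET2 and at −67 and −27 in TET3. Over the tested chromatin genes it was found in 2 of 19 promoters of genes lower without overlap, 5 of 26 of genes higher without overlap and 4 of 30 of the rest.

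Of 15 tested histone demethylases, 2 were called, both lower (13.3%, against 10.4% of all genes called in either direction). KDM5B (ENSG00000117139, chromosome 1, 202724495 to 202809470, minus strand), which removes H3K4 methylation, stood at 17.9 and 22.4 FPKM in the knockdown libraries, against 30.7 and 29.2 FPKM in wild type. The log2 change was −0.56 (SE 0.13, limma adjusted p = 0.0983), just inside the threshold, and 4 of 13 alternatives kept it under 0.10. KDM7A (ENSG00000006459, chromosome 7, 140084746 to 140177035, minus strand), which acts on H3K9 and H3K27, had 2.45 and 2.62 FPKM against 4.35 and 4.45 FPKM in wild type. That is 57.6% of the wild-type mean, with a log2 change of −0.61 (SE 0.13, limma adjusted p = 0.0877), kept under 0.10 in 8 of 12 alternatives.

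Other H3K4 demethylases lay on both sides of wild type, and none was called as deposited. KDM5A, its close relative, had 12.5 and 12.3 FPKM in the knockdown and 11.3 and 11.2 FPKM in wild type, and KDM5C overlapped at −0.03. KDM1A, the LSD1 demethylase and the most abundant of the family, stood at 101 and 106 FPKM, against 86.9 and 87.5 FPKM in wild type. That was a log2 change of 0.24 (limma adjusted p = 0.135), which was called with equal FPKM sums. KDM1B, its relative, had 16.1 and 21.7 FPKM against 23.2 and 22.8 FPKM, lower without overlap at −0.28 (limma adjusted p = 0.325). Demethylases of H3K9 and H3K36 (KDM4A, KDM4B and KDM4C) lay above wild type without overlap at 0.16, 0.11 and 0.26, and KDM3A and KDM3B overlapped at −0.04 and −0.02. Of the H3K36 enzymes KDM2A and KDM2B, the first was at 0.11 and the second at −0.13. The H3K27 demethylase KDM6B was at 0.14 without overlap, and KDM6A at 0.21 with 22.7 and 15.8 FPKM in the knockdown against 15.7 and 16.9 FPKM in wild type, high in MYC knockdown replicate 1 alone.

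Histone methyltransferases of the KMT2 and EZH families held no call. EZH2, the catalytic subunit of Polycomb complex PRC2, had 23.9 and 20.3 FPKM in the knockdown libraries and 29.2 and 27.5 FPKM in wild type. The log2 change of −0.35 missed the threshold (limma adjusted p = 0.15), and passed it with median-of-ratios scaling, and the groups did not overlap under any of the 3 scalings. EZH1, its less active paralog, had 14.9 and 13.4 FPKM against 13.3 and 12.7 FPKM. The PRC2 partners tested numbered 9, with a median of −0.01 and 1 called (11.1%, against 10.4% of all genes). PHF1, the accessory subunit that was called, had 15.5 and 13.7 FPKM against 9.23 and 10.1 FPKM in wild type (log2 change 0.55, limma adjusted p = 0.0850). KMT2C had the smallest p among its family, with 4.99 and 6.62 FPKM in the knockdown against 6.65 and 7.26 FPKM in wild type (log2 change −0.23, limma adjusted p = 0.414). KMT2D, KMT2A and KMT2E lay at 0.19, −0.09 and 0.05. KMT2B appeared as a second, noncoding row with 5.30 and 3.25 FPKM in the knockdown against 5.61 and 4.23 FPKM in wild type, next to 2.46 and 2.15 FPKM against 1.95 and 1.94 FPKM in the protein-coding row, so reads could be split between the rows and its level is uncertain.

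Of 7 acetyltransferases, 4 were higher and 0 lower without overlap (all genes 33.4% and 25.2%), and none was called. KAT6A overlapped with median-of-ratios scaling, and KAT6A and KAT7 overlapped with quantile normalization. KAT6B, an H3 acetyltransferase, had 3.75 and 3.68 FPKM in the knockdown and 2.77 and 2.86 FPKM in wild type (log2 change 0.31, limma adjusted p = 0.231). KAT2B, the PCAF enzyme, had 3.95 and 6.28 FPKM against 3.11 and 3.54 FPKM (0.47, limma adjusted p = 0.266), with most of the difference in MYC knockdown replicate 2. KAT5, the TIP60 enzyme that acetylates H4 and works with MYC, had 27.7 and 21.5 FPKM against 21.9 and 19.0 FPKM and overlapped. KAT6A and KAT7 lay at 0.08 and 0.07, KAT2A at 0.05 and KAT8, which acetylates H4K16, at −0.22. Among 17 tested partners in the NuA4 and SAGA complexes the median was 0.02 with 1 called (5.88%, against 10.4% of all genes). RUVBL1, an ATPase of NuA4 and INO80, was the gene called, at 46.6 and 37.7 FPKM against 69.3 and 65.7 FPKM in wild type (log2 change −0.67, limma adjusted p = 0.0717). Of 7 other acetyltransferase genes, 1 was called (14.3%, against 10.4% of all genes), and 5 were higher and 0 lower without overlap (all genes 33.4% and 25.2%). BRPF3, a scaffold of KAT7 complexes, was the gene called there, at 13.8 and 13.9 FPKM against 8.5 and 8.56 FPKM in wild type (0.64, limma adjusted p = 0.0581).

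Deacetylases went both ways. HDAC2, a class I enzyme, had 114 and 107 FPKM in the knockdown libraries, against 134 and 133 FPKM in wild type. At −0.27 it was the deacetylase with the smallest p and was not called as deposited (limma adjusted p = 0.119). Of the 3 scalings, median-of-ratios alone called it. HDAC1, its paralog in the same complexes, had 129 and 114 FPKM against 115 and 112 FPKM, so the order of the paralogs differed: HDAC1 was the higher in both knockdown libraries and HDAC2 the higher in both wild-type libraries. HDAC3, also of class I, was at −0.13 and overlapped. RCOR2, a corepressor of KDM1A, had 0.39 and 0.25 FPKM against 1.70 and 1.74 FPKM, a log2 change of −1.05. It passed the filter only through wild type, so it had to differ to be tested.

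Of the class II and IV enzymes, HDAC10, which deacetylates polyamines, had 17.2 and 13.1 FPKM in the knockdown against 11.8 and 10.2 FPKM in wild type. HDAC9 had 7.99 and 12.9 FPKM against 7.27 and 7.80 FPKM, with the difference mainly in MYC knockdown replicate 2. HDAC6, a cytoplasmic tubulin deacetylase, and HDAC11 also lay above wild type without overlap, at 0.31 and 0.33, and HDAC5 lay below at −0.39 (limma adjusted p = 0.146). HDAC4 had the widest spread of these, at 8.85 and 4.0 FPKM against 5.06 and 6.85 FPKM, and HDAC7 and HDAC8 overlapped as well. Over the 11 HDAC genes the median was 0.03, and it turned to −0.01 with median-of-ratios scaling and −0.06 with quantile normalization.

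Sirtuins, which deacylate proteins using NAD, were led by SIRT5, a mitochondrial desuccinylase. It stood at 10.1 and 7.06 FPKM in the knockdown libraries, against 5.02 and 5.44 FPKM in wild type. Both knockdown values were higher, but unequal, and the log2 change of 0.60 (SE 0.19) was called with equal FPKM sums and not as deposited (limma adjusted p = 0.143). SIRT2 and SIRT3, of cytosol and mitochondria, were also above wild type without overlap, at 0.18 and 0.22, and SIRT6, of the nucleus, below at −0.17. SIRT1 and SIRT7 overlapped, at 0.17 and 0.07.

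**Figure D3:**
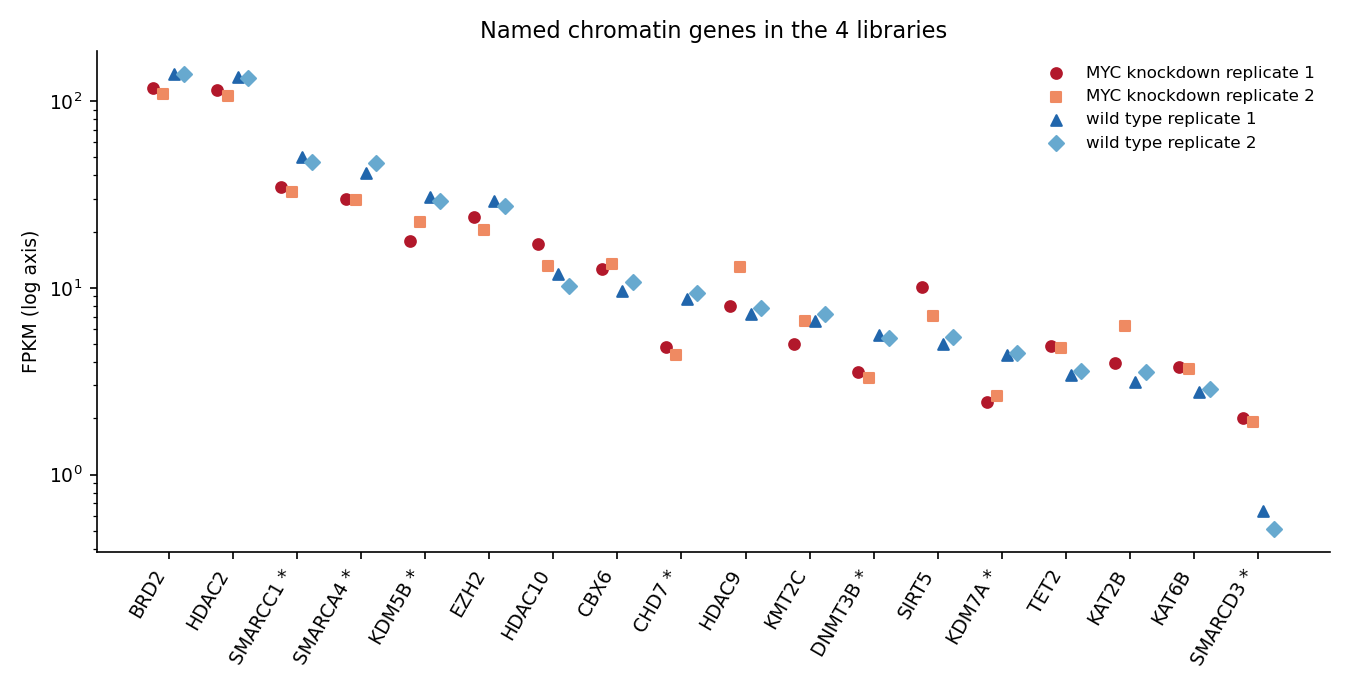
FPKM on a log axis in each of the 4 libraries for the called genes (asterisk), the gene with the smallest p in each family and the 5 largest log2 changes in each direction. The knockdown points of SMARCA4 (30.0 and 29.3) lie below its wild-type points (41.1 and 46.8), while those of SIRT5, KAT2B and HDAC9 lie apart from each other.

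Bromodomain and chromodomain readers included the most abundant of these genes. CBX3, the HP1 gamma protein, was highest at 185 and 174 FPKM in the knockdown and 211 and 205 FPKM in wild type (log2 change −0.21, limma adjusted p = 0.173), and it shares sequence with several pseudogene rows. BRD2, a BET protein that binds acetylated histones, had 117 and 109 FPKM in the knockdown libraries, against 140 and 140 FPKM in wild type. Its log2 change of −0.30 (SE 0.08) lay just outside the threshold (limma adjusted p = 0.105), and it passed with protein-coding rows alone, with a mean of at least 5 FPKM and with median-of-ratios scaling. BRD9, a SWI/SNF subunit, was at −0.19 without overlap. BRD1, BRD3, BRD7 and BRD8 overlapped.

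Chromobox genes lay on both sides of wild type, 3 of 8 higher and 4 lower without overlap (all genes 33.4% and 25.2%). All 3 HP1 genes lay below wild type without overlap, CBX1 at −0.14, CBX3 at −0.21 and CBX5 at −0.29, although CBX1 overlapped with equal FPKM sums. Of the Polycomb chromobox genes, CBX6, CBX7 and CBX8 lay above wild type, at 0.33, 0.30 and 0.21. CBX2 lay below at −0.37, but overlapped with equal FPKM sums. CBX6 had 12.6 and 13.4 FPKM in the knockdown against 9.66 and 10.7 FPKM in wild type (limma adjusted p = 0.152), and CBX2 had 1.86 and 3.10 FPKM against 3.71 and 3.18 FPKM. None of the 8 was called, and the family median of −0.05 became 0.02 with equal FPKM sums. Among 14 tested partners in PRC1, 0 were called (10.4% of all genes were). Their median was 0.09, and PCGF5 had the smallest p at 0.35 (limma adjusted p = 0.110).

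CBX5 (lower) and CBX6 (higher) each held CACGTG within 250 bases of the start site, and the stretches, chosen after the matches and values were seen, show where it stands (neither gene was called; GRCh38.p14, minus strand, chr12:54280123-54280372 for CBX5 and chr22:38872217-38872466 for CBX6; capitals as above).

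CBX5: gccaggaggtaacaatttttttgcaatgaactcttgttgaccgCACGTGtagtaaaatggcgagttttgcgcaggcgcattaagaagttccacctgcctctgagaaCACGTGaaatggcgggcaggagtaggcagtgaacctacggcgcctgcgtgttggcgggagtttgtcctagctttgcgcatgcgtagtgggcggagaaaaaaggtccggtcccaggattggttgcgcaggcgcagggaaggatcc

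CBX6: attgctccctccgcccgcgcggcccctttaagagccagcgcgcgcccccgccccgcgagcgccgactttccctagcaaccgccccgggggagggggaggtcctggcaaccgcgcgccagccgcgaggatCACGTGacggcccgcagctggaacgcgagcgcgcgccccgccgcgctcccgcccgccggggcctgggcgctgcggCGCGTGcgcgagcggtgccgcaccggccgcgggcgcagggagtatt

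CACGTG starts at −207 and −144 in CBX5 and at −121 in CBX6.

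Paralogs were compared by the ratio of 1 to the other of FPKM within each library, which stays the same when all values of a library are multiplied by 1 factor. For 15 of 20 pairs the ratios did not overlap between groups. The share among other pairs of genes was not computed, single genes often did not overlap either (33.4% higher and 25.2% lower), and the count is therefore no result about paralogs. SMARCA4 relative to SMARCA2 was 2.18 and 3.13 in the knockdown libraries, against 4.74 and 4.86 in wild type. SMARCC1 relative to SMARCC2 was 0.917 and 0.992 against 1.55 and 1.37, so the scaffold genes were near parity in the knockdown. EZH2 relative to EZH1 was 1.61 and 1.51 against 2.19 and 2.16. CHD8 relative to CHD7 was 4.41 and 4.25 against 2.38 and 2.36, and KDM5A relative to KDM5B 0.703 and 0.548 against 0.368 and 0.382. HDAC1 relative to HDAC2 was 1.13 and 1.07 against 0.862 and 0.843, on either side of 1. The ratios are given as a description and were not tested, and a changed ratio shows an unequal change, not which paralog changed.

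**Figure D4:**
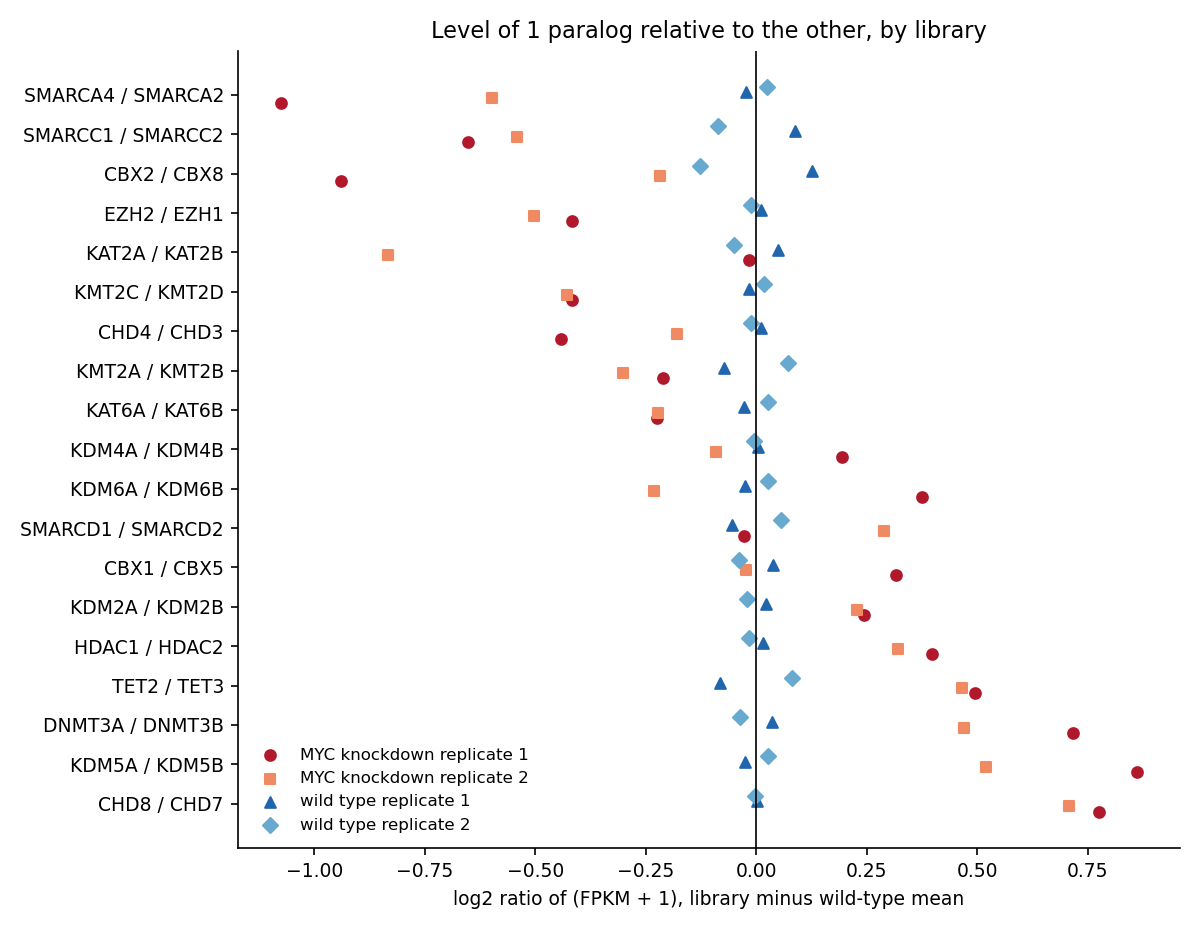
Each row is 1 of 19 pairs of paralogs; the points give the log2 ratio of (FPKM + 1) of the first to the second gene in each library, minus the mean of the 2 wild-type libraries. The wild-type points lie near 0, and the knockdown points lie to 1 side for 14 pairs, on average farthest for SMARCA4 over SMARCA2 (−0.84) and for CHD8 over CHD7 (0.74).

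The partner genes of these complexes were listed by complex. Over the tested genes of 10 lists, 127 genes in all, the median log2 change was 0.00, with 4 called higher and 2 lower at 0.10 (4.88%, against 10.4% of all genes), and 30.1% higher and 32.5% lower without overlap, against 33.4% and 25.2% of all genes. The NuRD and CoREST list had a median of −0.09, the other acetyltransferases 0.14, and the 6 tested DNA methylation partners 0.17 with 4 higher and 0 lower without overlap. The called genes included PHF1, BRPF3, RCOR2 and RUVBL1, described above, and ZBTB38, which binds methylated DNA, at 39.9 and 49.0 FPKM in the knockdown against 25.5 and 25.4 FPKM in wild type (0.77, limma adjusted p = 0.0616). The 20 other histone methyltransferases had 12 below and 2 above wild type without overlap (all genes 25.2% and 33.4%), at a median of −0.16, and 0 were called. The arginine methyltransferase PRMT1 came nearest, with 142 and 111 FPKM in the knockdown against 188 and 184 FPKM in wild type (−0.56, limma adjusted p = 0.101). COMPASS partners of the KMT2 enzymes had a median of 0.00 with 0 called, and 1 higher and 3 lower without overlap. ASH2L had the smallest p at 0.35 (limma adjusted p = 0.121), and PAXIP1 the largest change at −0.53 (limma adjusted p = 0.281). The 11 ISWI and INO80 partners had a median of −0.16 with 0 called, and BAZ1A had the smallest p at −0.35 (limma adjusted p = 0.178).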

How the data were processed

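Total RNA of 2 MYC knockdown and 2 wild-type libraries was sequenced, and groups and replicate numbers were taken from the sample titles. STAR and RSEM are named in the submitters' processing notes. Their versions, the build and the annotation are not stated there or in the labels. The deposited FPKM values, rounded by the authors to 2 decimals, were used as they stand; the unit was inferred because the columns sum to 674328 to 739335 and not to 1 total. Depth is unknown, and no counting interval is given. Whether the libraries keep strand is not given, so reads of overlapping genes cannot be told apart.

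The 12953 genes that reached 1 FPKM in 2 or more libraries entered limma 3.58.1 in R 4.3.3 (lmFit, eBayes with a mean trend) as log2(FPKM + 1), with Benjamini-Hochberg adjustment over all of them and two-sided p-values. Log2 changes are MYC knockdown minus wild type and understate low genes. The fit was tested on simulated data, where the check of recovered changes left out the smallest change simulated. The genes, lists, paralog pairs, thresholds and rule for named genes were chosen with earlier results of these data known; the rule named MYC, genes called at 0.10, the smallest p of each family and list, and the 5 largest changes in each direction. The genes whose promoters are printed and the other genes given values, RCOR2 included, were chosen after their values were seen. Gene positions are from GENCODE release 29 by Ensembl ID. Promoters are RefSeq's on GRCh38.p14, matched by symbol for 81 of 96 genes. Alternatives were 2 filters, protein-coding rows alone, a pseudocount of 0.1, the replicate block, 3 scalings, no mean trend, and each library left out. Some genes counted in the totals are not reported here by name.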

Additional observations from a re-analysis of the deposited data

Results flagged for a closer look

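The pseudogene row CBX3P2, which is outside the protein-coding rows compared, had a mean of 1.19 FPKM in the MYC knockdown libraries and lay above wild type in both. It stood at 1.81 and 0.56 FPKM in the knockdown, against 0.49 and 0.23 FPKM in wild type, and whether it shares reads with CBX3 was not tested.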

How the results depend on the processing

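The 18 named genes kept their direction under every alternative run that could fit them. Genes called at 0.05, 0 as reported, were 310 with a mean of at least 5 FPKM, 385 with protein-coding rows alone and 293 with median-of-ratios scaling; chromatin genes called at 0.05 were 1 (CHD7) with protein-coding rows alone and 1 (CHD7) with median-of-ratios scaling. Genes called at 0.10, 1349 as reported, were 0 with no filter, 2150 with equal FPKM sums, 838 with no mean trend and 723 with the replicate block. Chromatin genes called at 0.10, 1 higher and 6 lower as reported, were 0 and 0 with no filter, 0 higher with a mean of at least 5 FPKM, 4 higher with equal FPKM sums, and 0 higher and 2 lower with the replicate block. Chromatin genes higher without overlap were 44 with equal FPKM sums, against 28 as reported. That scaling also moved the median log2 change of all genes from 0.04 to 0.12. Leaving out each library in turn gave 0 to 3413 genes and 0 to 20 chromatin genes at 0.05, 0 to 5359 genes at 0.10, 0 to 19 chromatin genes called higher and 0 to 19 called lower at 0.10, 32 to 53 higher without overlap and 25 to 43 lower; the single library left in a group was taken to vary as the other group does. The labels do not pair the libraries by number, and deviations of same-numbered libraries from their group means correlated at −0.0059 across genes, so the replicate block is only an alternative. Depth is not given, so what it limits cannot be stated.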
